A study of Mus musculus with 12 samples.

Results

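Transcripts of 10 integrin subunit genes were followed in bulk RNA from tissue beside the mouse spine, with or without surgery. The genes were Itga5, Itgav, Itgb3, Itgb5, Itgb1, Itga10, Itga11, Itga7, Itgb4 and Itga2b, out of 27 genes for integrin alpha and beta subunits and 18996 genes in all in the deposited table. They were chosen by name, with their CPM (read counts scaled to a common library size) in the 3 groups already known. Their levels and differences between groups are therefore given as a description, with no p-value for any of them. Each of the 10 genes had whole-number counts in every mouse and passed the filter on low counts, with 54 reads (Itga2b) to 19150 reads (Itgb1) per mouse. CPM were computed over the whole table after TMM scaling of the library sizes.

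The study compared 3 groups of 4 BALB/c mice aged 5 to 7 weeks, and no allele or drug is named for them. No operation mice gave intact soft tissue from beside the spine. SHAM mice had this soft tissue removed and kept their laminae, whereas in Laminectomy mice the laminae at T12-L2 were excised so that the dura lay open. By the labels the tissue of both surgical groups held soft tissue and scar, and it was taken a week after surgery. Each mouse was a separate animal, the sex of these mice is not given in the labels, and the series gives a single time point, so the values describe that week only.

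Integrins are cell surface receptors made of an alpha and a beta chain, and the pairing decides what they bind. The alpha 5 and alpha v chains read the RGD motif of fibronectin, vitronectin and osteopontin, alpha 10 and alpha 11 bind collagens, alpha 7 and the beta 4 chain bind laminins of basement membranes, and alpha IIb pairs with beta 3 as the fibrinogen receptor of platelets. Inside the cell their tails join talin, kindlins and the actin cytoskeleton, and several alpha v integrins release active TGF-beta from its latent complex, which is why they are studied in scars.

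Total counts ran from 16802988 to 18077863 per mouse. The 3 groups differed widely in their cell markers. The summed CPM of 8 skeletal muscle markers was 78515 to 113433 in No operation mice, 1980 to 8726 in SHAM mice and 3063 to 12028 in Laminectomy mice, and that of 8 fibroblast markers was 5979 to 21139, 44368 to 60137 and 40784 to 46704. Of the fibroblast markers, 6 were called higher and 1 lower in each surgical group against No operation, by the rule given below. Dcn was at 2322 to 5245 CPM in No operation, 1215 to 2606 CPM in SHAM and 505 to 1242 CPM in Laminectomy mice. The tissue label was met by the muscle and fibroblast markers in every mouse, and none of them was at 0. SHAM 1 stood apart with the lowest muscle marker sum (1980) and a myoblast marker sum of 2.47, against 150 to 215 in the other SHAM mice. No operation 2 stood apart with the highest platelet, osteoclast and cartilage marker sums of its group in lists taken without Pf4 (platelet) and Chad (cartilage). In bulk tissue, fewer cells of a type and less RNA per cell cannot be told apart, and this holds for every value below. The part that cell makeup has in the values was not tested.

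Promoters of 7 of the 10 genes, all but Itga7, Itgb3 and Itgb4, were matched in the RefSeq table (GRCm38.p6). The stretches upstream of 3 genes are shown because these genes differed most in level between groups: Itga5 for surgery against none, and Itga10 and Itga11 for Laminectomy against SHAM. They are read 5′ to 3′ on the strand of the gene and end before the RefSeq start, or before the start in the GRCm38 annotation where that lies further upstream. Capitals mark ETS cores (GGAAG, or CTTCC on the other strand) and E-boxes (CANNTG). Itga5 is at chr15:103366792-103367041 (minus strand), Itga10 at chr3:96645334-96645583 (plus strand) and Itga11 at chr9:62677605-62677825 (plus strand).
Itga5: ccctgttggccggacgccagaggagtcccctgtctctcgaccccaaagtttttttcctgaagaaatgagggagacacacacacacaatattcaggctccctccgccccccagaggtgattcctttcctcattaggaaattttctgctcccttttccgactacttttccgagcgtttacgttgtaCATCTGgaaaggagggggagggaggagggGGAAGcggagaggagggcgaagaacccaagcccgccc
Itga10: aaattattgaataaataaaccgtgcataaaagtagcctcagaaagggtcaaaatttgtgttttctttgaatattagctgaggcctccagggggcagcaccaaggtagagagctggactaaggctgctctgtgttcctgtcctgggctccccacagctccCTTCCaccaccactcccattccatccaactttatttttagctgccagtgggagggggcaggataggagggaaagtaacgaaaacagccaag
Itga11: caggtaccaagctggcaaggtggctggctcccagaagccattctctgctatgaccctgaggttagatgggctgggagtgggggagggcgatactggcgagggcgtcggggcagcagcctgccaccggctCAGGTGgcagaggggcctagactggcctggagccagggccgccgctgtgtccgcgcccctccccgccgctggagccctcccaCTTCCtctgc
Searched on both strands over the full 250 bases before the RefSeq start of all 7 genes, including bases not printed, the ETS core was present in 6 of the 7 promoters and in 64.1% of all 32851 promoter windows. The E-box was present in 4 of 7, against 66.2% of all windows. An AP-1 element (TGANTCA) was found in 0 of 7, against 6.75% of all windows, and a CArG box in 0 of 7, against 1.47%. No capitals of the 2 motifs overlapped in the printed stretches. These matches describe letters and are not evidence of binding.

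Itga5, the alpha chain of the fibronectin receptor, lies on chromosome 15 at 103344286 to 103366763 (GRCm38, minus strand). It was at 171, 69.4, 89.3 and 88.9 CPM in the No operation mice, at 358, 299, 271 and 347 CPM in the SHAM mice and at 463, 278, 237 and 291 CPM in the Laminectomy mice. Every surgical mouse was above every No operation mouse, while the SHAM and Laminectomy mice overlapped. The group means were 105 ± 45 (SD, n = 4), 319 ± 40.8 and 317 ± 99.7 CPM. The log2 fold change was 1.61 (SE 0.28) in SHAM and 1.60 (SE 0.28) in Laminectomy mice against No operation, and -0.01 (SE 0.28) in Laminectomy against SHAM. The surgical groups differed in Itga5 by less than the spread between mice, and both means were above the No operation mean, 3.05-fold and 3.04-fold in the fit.

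Itgav, the alpha v chain, which pairs with several beta chains, lies on chromosome 2 at 83724397 to 83806916 (plus strand). It was at 85.2, 84.8, 87.2 and 62.1 CPM in the No operation mice, at 150, 116, 130 and 142 CPM in the SHAM mice and at 233, 155, 166 and 165 CPM in the Laminectomy mice. The order was No operation below SHAM below Laminectomy, and no group overlapped its neighbour. The fitted log2 change was 0.75 (SE 0.15) for SHAM against No operation, 1.17 (SE 0.16) for Laminectomy against No operation and 0.42 (SE 0.15) for Laminectomy against SHAM. The gene model Gm13684 overlaps Itgav on the opposite strand and is not among the rows of the table.

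The beta partners of alpha v did not share one pattern. Itgb3, on chromosome 11 at 104608000 to 104670476 (plus strand), is the beta chain of the vitronectin receptor and is known from osteoclasts, platelets and activated endothelium. It was at 29.4, 114, 63.2 and 17.4 CPM in the No operation mice, at 48.3, 67.9, 64.3 and 89.9 CPM in the SHAM mice and at 143, 106, 112 and 99.5 CPM in the Laminectomy mice. Laminectomy mice were all above the SHAM mice, but No operation mice ranged 6.59-fold and overlapped both. The log2 fold change against No operation was 0.27 (SE 0.45) in SHAM and 1.04 (SE 0.45) in Laminectomy mice, and it was 0.77 (SE 0.45) in Laminectomy against SHAM. Without No operation 2 the value for SHAM was 0.88 and that for Laminectomy 1.65, and without No operation 4 the value for SHAM was -0.04.

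Itgb5, on chromosome 16 at 33829665 to 33949338 (plus strand), encodes the other widely expressed vitronectin-binding partner of alpha v. It was at 221, 160, 215 and 188 CPM in the No operation mice, at 225, 233, 249 and 220 CPM in the SHAM mice and at 242, 216, 201 and 207 CPM in the Laminectomy mice. All groups overlapped, and the log2 fold changes were 0.24 (SE 0.11), 0.14 (SE 0.11) and -0.10 (SE 0.11) in the same order of comparisons. Itgb5 had the smallest spread of the 10 genes within each group, with a coefficient of variation of 14.3%, 5.45% and 8.23% in No operation, SHAM and Laminectomy mice.

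Itgb1, the beta 1 chain shared by most matrix receptors, lies on chromosome 8 at 128685654 to 128733200 (plus strand). Its level was 789, 503, 643 and 501 CPM in the No operation mice, 911, 648, 939 and 964 CPM in the SHAM mice and 1014, 884, 895 and 830 CPM in the Laminectomy mice. Laminectomy mice were all above No operation mice, and SHAM 2 lay among the No operation values. On the log2 scale the difference was 0.51 (SE 0.18) in SHAM and 0.57 (SE 0.18) in Laminectomy mice against No operation, and 0.07 (SE 0.18) between the surgical groups.

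**Figure D1:**
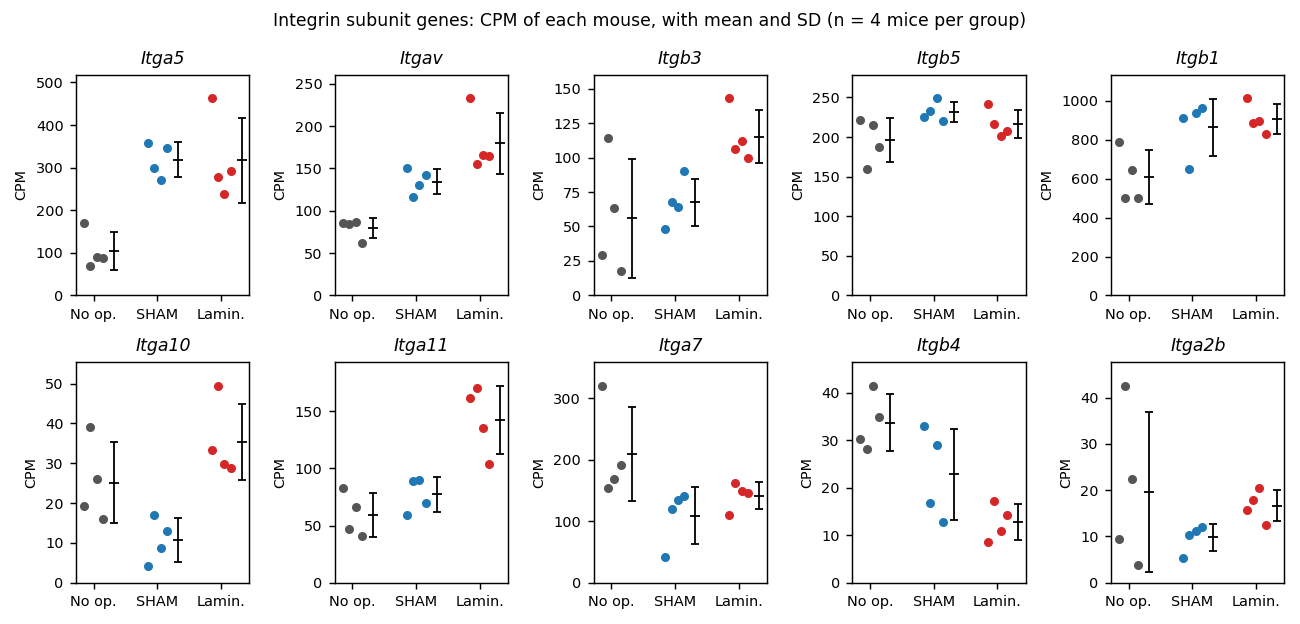
CPM of the 10 integrin subunit genes in each mouse (vertical axes from 0, a different scale per panel) by group, with points for mice and a dash with bars for the mean and SD (n = 4). Itga5 and Itgav sit higher in all surgical mice than in the No operation mice, Itga11 and Itga10 are higher in every Laminectomy mouse than in any SHAM mouse, and Itgb5 overlaps across all groups.

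The collagen receptor chains Itga11 and Itga10 did not overlap between the surgical groups, while Itga1 and Itga2, the other alpha chains known to bind collagen, did (17.4 to 29.2 CPM of Itga1 in SHAM and 20.7 to 24.6 CPM in Laminectomy mice, and 12.2 to 19.9 and 11.7 to 15.3 CPM of Itga2). Itga11, on chromosome 9 at 62677826 to 62783982 (plus strand), encodes alpha 11, a receptor for fibrillar collagens known from fibroblasts and myofibroblasts. It was at 83.1, 47.3, 66.4 and 41.1 CPM in the No operation mice, at 59.5, 89.4, 90 and 70.1 CPM in the SHAM mice and at 162, 170, 135 and 104 CPM in the Laminectomy mice. Laminectomy mice were above all others, and SHAM and No operation mice overlapped. On the log2 scale the difference was 0.38 (SE 0.23) in SHAM against No operation, 1.26 (SE 0.24) in Laminectomy against No operation and 0.89 (SE 0.23) in Laminectomy against SHAM.

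Itga10, on chromosome 3 at 96645584 to 96664519 (plus strand), encodes alpha 10, the collagen II receptor of cartilage. It was at 19.2, 39, 26.1 and 16.1 CPM in the No operation mice, at 4.16, 16.9, 8.63 and 13 CPM in the SHAM mice and at 33.3, 49.5, 29.7 and 28.8 CPM in the Laminectomy mice. The order was SHAM below No operation below Laminectomy, and the Laminectomy and SHAM mice did not overlap, while No operation mice overlapped both. Fitted log2 differences were -1.23 (SE 0.39) for SHAM against No operation, 0.49 (SE 0.38) for Laminectomy against No operation and 1.73 (SE 0.40) for Laminectomy against SHAM, the largest difference between the surgical groups among the 10 genes. The gene model Gm42957 overlaps Itga10 on the same strand and is not among the rows of the table, so reads shared with it could count for Itga10.

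Cartilage markers did not all go the same way as Itga10. Of the 8 markers, 1 was called higher and 2 lower in SHAM against No operation, and 3 higher and 2 lower in Laminectomy against No operation. The 7 markers other than Chad summed to 19.6 to 260 CPM in No operation, 12.9 to 121 CPM in SHAM and 183 to 1066 CPM in Laminectomy mice. The mouse with the least Itga10 (SHAM 1, 4.16 CPM) also had the smallest sum (12.9), and the mouse with the most (Laminectomy 2, 49.5 CPM) the greatest (1066). The order was not the same throughout, as SHAM 3 had the highest sum of its group (121) with 8.63 CPM of Itga10. Chad, a cartilage matrix protein, was at 119 to 774 CPM in No operation, 1.85 to 15.9 CPM in SHAM and 13.4 to 59.1 CPM in Laminectomy mice, and with it the sums were 148 to 854, 14.8 to 137 and 197 to 1125 CPM. With Chad the Laminectomy and No operation mice overlapped, as they did without it. Col2a1, the main collagen of cartilage, was at 53.9 to 697 CPM in the Laminectomy mice and at 0.45 to 55.3 CPM in the SHAM mice. Without SHAM 1 the Itga10 difference of Laminectomy from SHAM was 1.47, and without SHAM 1 and No operation 2 together that of SHAM from No operation was -0.67. The part of cartilage in the Itga10 values was not tested.

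Of the 10 genes, the laminin receptor chains Itga7 and Itgb4 had lower means in both surgical groups. Itga6 and Itga3, laminin-binding chains outside the 10, were not called by edgeR in either surgical group against No operation. Their log2 fold changes in SHAM and Laminectomy mice were -0.06 and 0.01 for Itga6 and 0.42 and 0.33 for Itga3. Itga7, on chromosome 10 at 128933818 to 128958282 (plus strand), encodes alpha 7, which anchors muscle fibres to the surrounding laminin. It was at 321, 155, 169 and 192 CPM in the No operation mice, at 41.4, 120, 134 and 141 CPM in the SHAM mice and at 110, 162, 150 and 146 CPM in the Laminectomy mice. All SHAM mice were below all No operation mice, whereas Laminectomy 2 overlapped with No operation 2. Fitted log2 differences were -0.94 (SE 0.34) in SHAM and -0.56 (SE 0.34) in Laminectomy mice, and 0.38 (SE 0.34) in Laminectomy against SHAM. Mettl7b overlaps Itga7 on the opposite strand and was at 0 to 3.21 CPM.

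Itga7 was 1.91-fold lower in the SHAM group than in the No operation group, whereas the highest SHAM sum of muscle markers (8726 CPM) was a small share of the lowest No operation sum (78515 CPM). All 8 muscle markers were called lower in both surgical groups. Myoblast markers, in contrast, summed to 44.6 to 69.8 CPM in No operation mice, 229 to 273 CPM in Laminectomy mice and 150 to 215 CPM in SHAM 2, 3 and 4. Of these 6 markers, 3 were called higher and 0 lower in each surgical group against No operation. Pax7 was at 7.43 to 12.6 CPM in No operation, 0.506 to 9.07 CPM in SHAM and 7.15 to 12.5 CPM in Laminectomy mice. SHAM 1, the mouse with the lowest Itga7 (41.4 CPM), had a myoblast sum of 2.47 CPM. Without SHAM 1 the Itga7 difference of SHAM from No operation was -0.66, and without No operation 1 it was -0.65.

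Itgb4, on chromosome 11 at 115974709 to 116008412 (plus strand), encodes beta 4, the laminin-binding chain of hemidesmosomes in epithelia that is also made by Schwann cells and endothelium. It was at 30.2, 28.2, 41.5 and 34.9 CPM in the No operation mice, at 32.9, 16.8, 28.9 and 12.7 CPM in the SHAM mice and at 8.58, 17.1, 10.9 and 14.3 CPM in the Laminectomy mice. Laminectomy mice were all below No operation mice, and SHAM mice spanned both ranges. The log2 fold change was -0.56 (SE 0.30) in SHAM and -1.41 (SE 0.30) in Laminectomy mice against No operation, and -0.84 (SE 0.30) between the surgical groups. The gene model B230344G16Rik overlaps Itgb4 on the opposite strand and is not among the rows of the table.

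The SHAM mice with more Itgb4, SHAM 1 and SHAM 3, had keratin 5 (Krt5) at 27.4 and 31.9 CPM, and no other mouse exceeded 2.03 CPM. Other keratinocyte markers were split. Krt14 was at 12.7 and 37.1 CPM in SHAM 1 and SHAM 3 and at most 1.71 CPM in any other mouse. Col17a1 was at 16 and 5.67 CPM in them and at most 1.95 CPM in any other mouse. Dsg3 was also highest there, at 1.07 and 0.847 CPM, and Krt15 was at 13.9 CPM in SHAM 1 but 0.371 CPM in SHAM 3. Trp63 and Dst did not follow Krt5. Trp63 was at 16.6 to 35.7 CPM in No operation mice and 3.65 to 9.75 CPM in the surgical mice, with its lowest value in SHAM 1, and Dst was at 491 to 655 CPM and 200 to 270 CPM. The 6 Schwann cell markers together spanned 283 to 413 CPM in No operation, 161 to 515 CPM in SHAM and 113 to 889 CPM in Laminectomy mice. The 7 keratinocyte markers spanned 509 to 688 CPM in No operation, 239 to 353 CPM in SHAM and 206 to 260 CPM in Laminectomy mice, most of it Dst. Without Dst they spanned 18.2 to 37.8, 8.86 to 83.4 and 6.04 to 11.1 CPM, with Dsg3 at 0 in all No operation mice. Of the 4 that were tested, 2 were called higher and 2 lower in SHAM against No operation, and 0 higher and 2 lower in Laminectomy against No operation. Their part in the Itgb4 values was not tested.

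Itga2b, on chromosome 11 at 102453297 to 102470122 (minus strand), encodes alpha IIb, made by megakaryocytes and carried by platelets, so it is not known as a receptor of cells resident in the matrix. It was at 9.44, 42.6, 22.4 and 3.79 CPM in the No operation mice, at 5.45, 10.4, 11.2 and 12.1 CPM in the SHAM mice and at 15.7, 17.8, 20.4 and 12.5 CPM in the Laminectomy mice. No operation mice ranged 11.3-fold and held both the lowest and the highest value of the 12, while every Laminectomy mouse was above every SHAM mouse. The log2 fold change was -1.0 (SE 0.56) in SHAM and -0.24 (SE 0.55) in Laminectomy mice, and 0.76 (SE 0.56) in Laminectomy against SHAM. Without No operation 2 the Laminectomy value turned to 0.48 and the SHAM value was -0.28.

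Platelet and megakaryocyte markers without Pf4 summed to 135 CPM in No operation 2 and 8.62 CPM in No operation 4, the mice with the most and the least Itga2b. With Pf4 the sums were 28 to 156 CPM in No operation, 176 to 569 CPM in SHAM and 137 to 251 CPM in Laminectomy mice, an order that Itga2b did not follow. In SHAM 1 the sum without Pf4 was 111 CPM, with Ppbp alone at 106 CPM, and Itga2b was at 5.45 CPM. Gp6 and Gp9, platelet receptor genes, were at 0 in No operation 4 and at 6.23 and 4.85 CPM in No operation 2. The osteoclast marker sum was 107 to 756 CPM in No operation, 505 to 771 CPM in SHAM and 1247 to 2695 CPM in Laminectomy mice. Its highest value was in Laminectomy 1, the mouse with the most Itgb3.

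**Figure D2:**
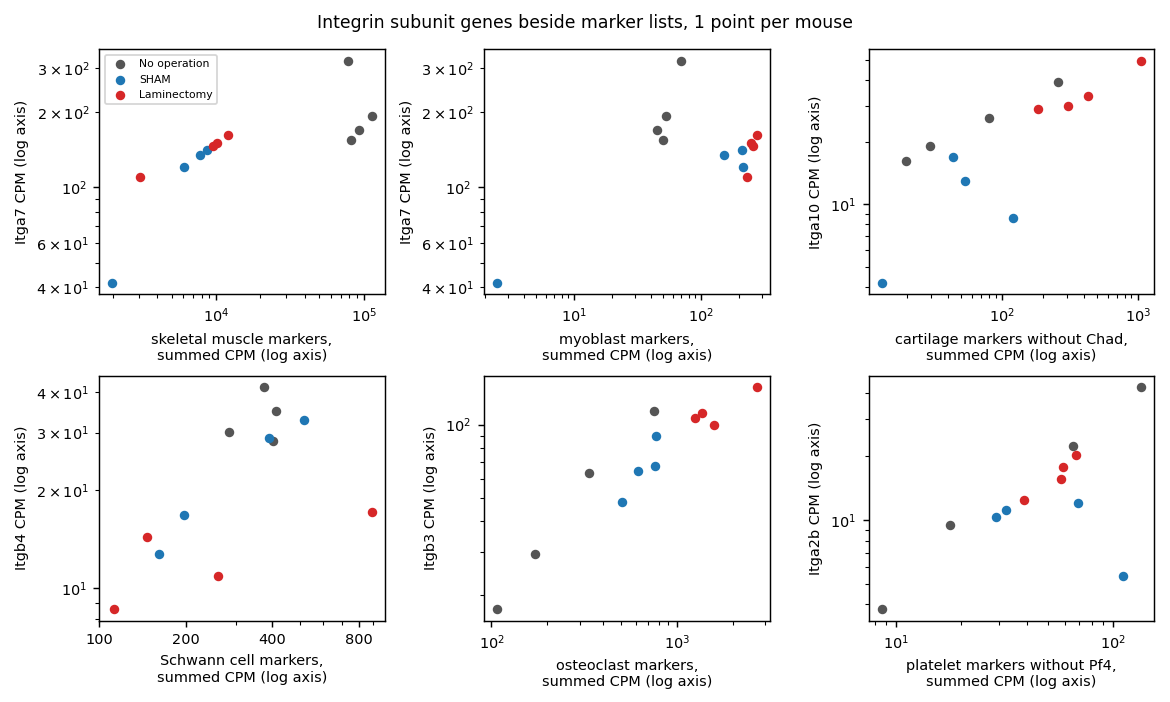
CPM of 5 integrin genes against summed CPM of marker lists, with 1 point per mouse, colours for the groups and log axes. Itga10 and the cartilage sum are both lowest in SHAM 1 and highest in Laminectomy 2, Itga7 spans a narrower range than the skeletal muscle markers, and SHAM 1 lies apart in the Itga7 and Itga2b panels.

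By the rule used for calls, a Benjamini-Hochberg adjusted p below 0.05 from edgeR's quasi-likelihood test over all genes and an absolute log2 fold change above 0.5, 5 of the 10 genes were called in SHAM against No operation, where 50.8% of the 14765 genes tested were called. Of these, 3 were higher (Itga5, Itgav, Itgb1), beside 25.7% of all genes, and 2 lower (Itga10, Itga7), beside 25.1%. The groups did not overlap for 3 of 10 genes, beside 54.5% of all genes. Leaving out 1 mouse changed some of these calls. Itgb1 was not called without No operation 2 or 4 or SHAM 1, 3 or 4 (log2 0.42 to 0.49), Itga10 not without No operation 2 (-0.94), and Itga7 not without No operation 1 (-0.65) or SHAM 2 (-0.98). Itga11 was called without No operation 1 (0.58), Itgb4 without SHAM 1 (-0.78) and Itga2b without No operation 4 (-1.35). With No operation 2 left out the count was 3. Itga7 was also not called with the replicate number as a block. When only the groups compared were fitted, neither Itga7 nor Itgb1 was called.

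In Laminectomy against No operation 5 of the 10 genes were called, where 48.6% of all genes were. Itga5, Itgav, Itgb1 and Itga11 were higher, beside 24.2% of all genes, and Itgb4 was lower, beside 24.4%. The same 5 genes were those whose groups did not overlap, beside 56% of all genes. Itgb1 was not called without No operation 2 (log2 0.49) or 4 (0.50), and Itgb3 was called without No operation 2 (1.65). With all mice, DESeq2 called 6 of the 10 genes, the same 5 and Itgb3. In Laminectomy against SHAM edgeR called 0 of the 10, as it called 0% of all genes, with 4 at an unadjusted p under 0.05, beside 16% of all genes, and 2 called by DESeq2 (Itga10 and Itga11), beside 4.35% of the genes DESeq2 tested. The groups did not overlap for 5 of the 10, all higher in Laminectomy mice (Itgav, Itgb3, Itga10, Itga11, Itga2b), beside 10.1% of all genes. Since the genes were chosen with these levels known, nothing is read from their counts. SHAM and Laminectomy share the No operation mice as controls, so the values against No operation are not independent.

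**Figure D3:**
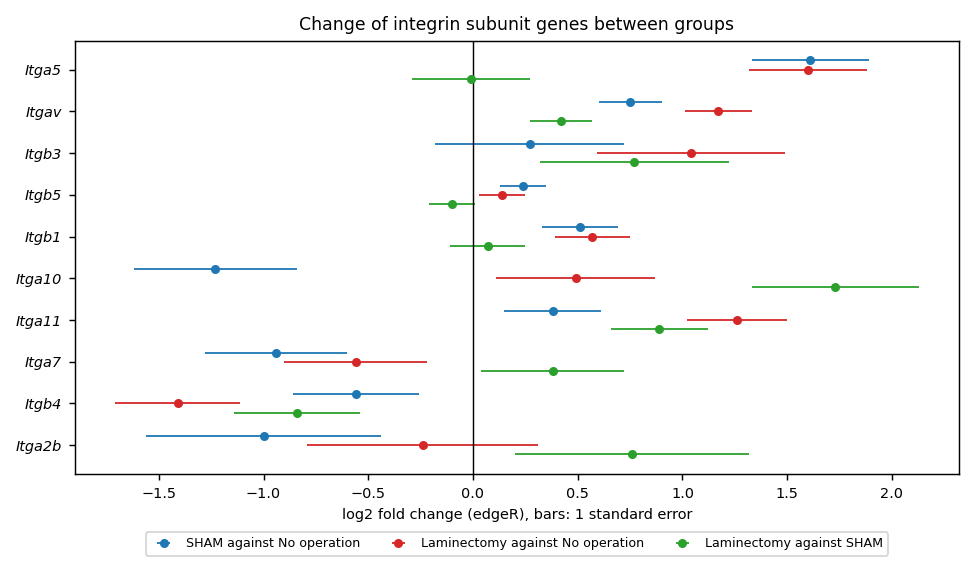
Log2 fold change of the 10 genes in the 3 comparisons (horizontal axis), with points for edgeR estimates and bars for 1 standard error. Itga5 has nearly the same value in both surgical groups against No operation (1.61 and 1.60), while Itga10 is at -1.23 in SHAM and 0.49 in Laminectomy mice.

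Compared per kilobase of exonic length, Itgb1 was the most abundant of the 10 transcripts in every group. It made up 50.7% ± 2.02 (SD, n = 4) of the summed CPM per kb of the 10 genes in No operation, 52.5% ± 4.54 in SHAM and 50.5% ± 1.86 in Laminectomy mice. Itgb5 was next in No operation mice, with 19% ± 2.25, above Itga7 with 8.71% ± 1.85 and Itga5 with 7.05% ± 1.76, and the last pair differed by less than their spread. In SHAM mice Itga5 (16.2% ± 2.18) and Itgb5 (16.4% ± 1.95) were level within their spread, as they were in Laminectomy mice (14.4% ± 2.91 and 13.9% ± 0.525). At the low end, Itgb4 made up 0.421% ± 0.144 of the sum in Laminectomy mice and 1.68% ± 0.401 in No operation mice.

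Ratios within a mouse do not depend on the library size. The ratio of Itga5 to Itgb1 in CPM per kb was 0.139 ± 0.0308 (SD, n = 4) in No operation, 0.311 ± 0.0594 in SHAM and 0.287 ± 0.0672 in Laminectomy mice. The lowest surgical mouse (0.219) was above the highest No operation mouse (0.179). Itga7 to Itgb1 went the other way, with 0.172 ± 0.0335, 0.0657 ± 0.0301 and 0.0801 ± 0.0172, and again no surgical mouse (up to 0.0937) reached a No operation mouse (0.133 or more).

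Itga11 to Itgb1 was 0.0765 ± 0.00845 in No operation, 0.0739 ± 0.0261 in SHAM and 0.125 ± 0.022 in Laminectomy mice, with SHAM 2 (0.11) above Laminectomy 4 (0.0996). Itga11 to Itga10, the alpha chains of collagen receptors, was 2.69 ± 1.29, 8.95 ± 4.39 and 4.16 ± 0.704, and every SHAM mouse (5.35 or more) was above every other mouse (4.92 or less). Itgb3 to Itgav was 1.23 ± 0.893, 0.926 ± 0.249 and 1.17 ± 0.0768, with all groups overlapping. Itga2b to Itgb3, the chains of the platelet fibrinogen receptor, was 0.342 ± 0.0747 in No operation, 0.156 ± 0.0286 in SHAM and 0.158 ± 0.0368 in Laminectomy mice, and the lowest No operation mouse (0.236) was above the highest surgical mouse (0.197). All of these ratios rest on the levels the genes were chosen by and carry no test.

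**Figure D4:**
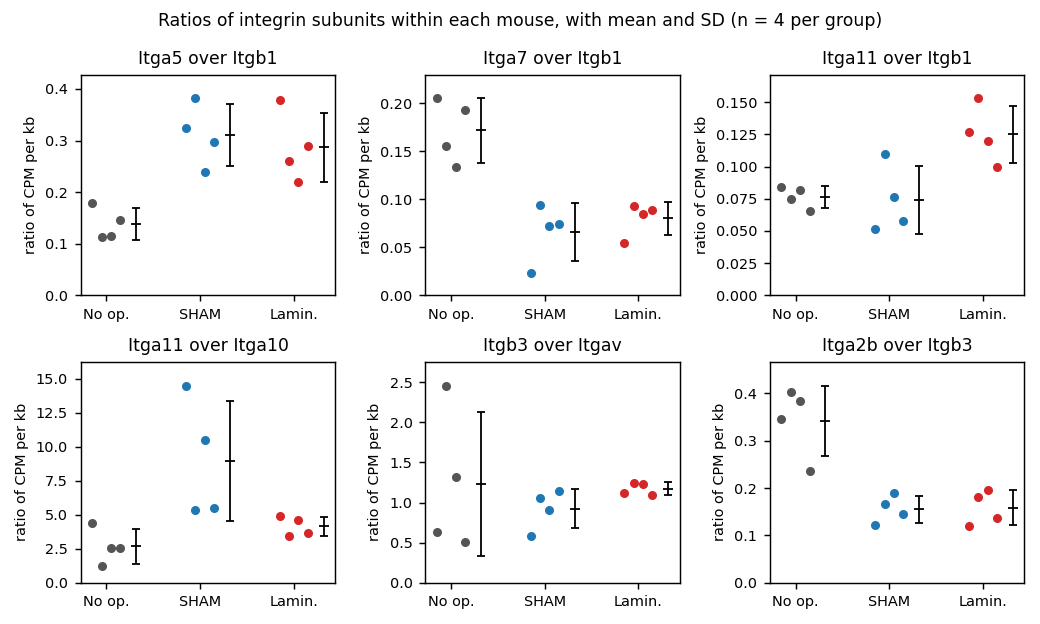
Ratios of CPM per kb of exonic length between integrin genes in each mouse (vertical axes from 0) by group, with points for mice and a dash with bars for the mean and SD (n = 4). Itga5 over Itgb1 is above 0.2 in every surgical mouse and below 0.2 in every No operation mouse, Itga11 over Itga10 is highest in the SHAM mice, and Itga2b over Itgb3 is highest in the No operation mice.

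Across the 12 mice, Itgb3 and Itga2b had a Pearson r of 0.76 in log2 CPM and of 0.96 after the group means were taken off. Over all 45 pairs of the 10 genes, the latter ranged from -0.48 to 0.96 and was above 0 in 26. Points within these correlations share their library and its depth. Itga2b and Itga10 had an r of 0.68, and 0.70 after the group means were taken off, with No operation 2 high in both.

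The genes most like each of the 10 were taken as those with the highest r of log2 CPM over the 12 mice among 10627 genes. For Itga7 they were Myom3 (r = 0.989), a protein of the muscle M-band, Musk (0.976), the receptor that organises the neuromuscular junction, and Trim72 (0.974), which repairs muscle membranes. For Itgb4 they were Trf (0.965), Entpd2 (0.959) and Pmp22 (0.958), the last a protein of peripheral myelin that was itself among the Schwann cell markers. For Itgb3 they were Mmp13 (0.969), a collagenase, E2f8 (0.964) and Ccnf (0.963), which act in the cell cycle. For Itga2b they were Tent5c (0.927), Ctse (0.916) and Prtn3 (0.906), the last a protease of neutrophil precursors.

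For Itga10 the most alike were Serpine2 (0.976), Alpl (0.957), the phosphatase of mineralising bone and cartilage, and Mphosph9 (0.938). For Itga11 they were Wrnip1 (0.968), Slc1a4 (0.968) and Col8a1 (0.956). For Itga5 they were Mydgf (0.987), Fam129b (0.984) and Colgalt1 (0.983), the last an enzyme that adds galactose to collagen. For Itgav they were Atp6v1c1 (0.985), Sfpq (0.977) and Ssr1 (0.975). For Itgb1 they were Dnajc10 (0.982), Arcn1 (0.976) and Copb2 (0.976), of which Arcn1 and Copb2 encode coat proteins of transport vesicles. For Itgb5 they were Ccn5 (0.910), Sar1a (0.908) and Fbxw8 (0.892).

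Of the 17 other integrin subunits in the table, 16 passed the filter and Itgb8 did not. In SHAM against No operation edgeR called 7, of which 4 rose and 3 fell, beside 50.8% of all genes called (25.7% up, 25.1% down), and the median log2 fold change was 0.17, beside -0.00 over all genes. The genes that rose were Itgam, Itgax, Itgb2 and Itgb7, chains known from leukocytes. Itgam, the alpha M chain of neutrophils and macrophages, was at 31.1 to 166 CPM in No operation and 320 to 1065 CPM in SHAM mice (log2 2.37, SE 0.55, adjusted p = 0.00307). The genes that fell were Itga2, Itga8 and Itgb6, with Itgb6, which pairs with alpha v in epithelia, at 27.4 to 43.7 CPM in No operation and 0.562 to 12 CPM in SHAM mice (log2 -2.12, SE 0.58, adjusted p = 0.00737). The call of Itga2 (log2 -0.87, edgeR adjusted p = 0.045) was lost without No operation 2 or 3 or SHAM 2, 3 or 4 (log2 -0.83 to -0.42).

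In Laminectomy against No operation 6 of the 16 were called, 4 up and 2 down, beside 48.6% of all genes (24.2% up, 24.4% down), with a median of 0.02 beside 0.01 over all genes. Itgax, the alpha X chain of dendritic cells and macrophages, rose, with 3.93 to 17.3 CPM in No operation and 42.2 to 77.1 CPM in Laminectomy mice (log2 2.52, SE 0.42, adjusted p = 0.000414), and Itgb2, the common beta chain of leukocyte integrins, rose by 1.79 on the log2 scale (SE 0.50, adjusted p = 0.00872). Itga8, a receptor chain of smooth muscle and mesenchyme, fell by 1.31 (SE 0.45, adjusted p = 0.0251). Itgb6 was at 7.94 to 16.7 CPM in Laminectomy mice, below all No operation mice (27.4 to 43.7 CPM). It was not called by edgeR (log2 -1.35, SE 0.56, adjusted p = 0.0552) but was called by DESeq2. Itga2 was called at -0.95 but not without No operation 2 or 3 or any 1 of the Laminectomy mice (log2 -1.0 to -0.50), Itgb7 not without No operation 1 (0.97) or 4 (0.88), and Itga8 not without Laminectomy 4 (-1.25). Only Itgax and Itgb2 were called without No operation 3 or without Laminectomy 1, which took the count to 2. In Laminectomy against SHAM edgeR called 0 of 16, with 1 at an unadjusted p under 0.05 (16% of all genes) and 0 called by DESeq2 (4.35% of all genes). Macrophage markers moved with the leukocyte chains, with sums of 572 to 1609 CPM in No operation, 4068 to 7035 CPM in SHAM and 3000 to 5054 CPM in Laminectomy mice, and their part was not tested.

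**Figure D5:**
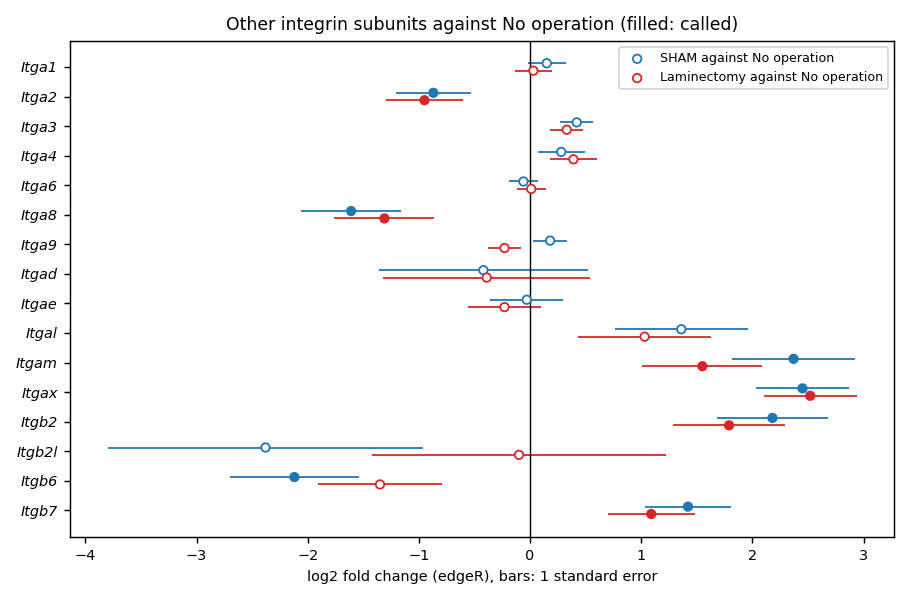
Log2 fold change of the 16 other integrin subunits that were tested, in SHAM and Laminectomy mice against No operation (horizontal axis), with bars for 1 standard error and filled points for genes called by edgeR. Itgam, Itgax, Itgb2 and Itgb7 are filled on the right in both comparisons, and Itga2 and Itga8 on the left.

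Among 35 adaptors of integrin adhesions that were tested, 24 were called in SHAM against No operation (15 up, 9 down, median 0.30 on the log2 scale) and 23 in Laminectomy against No operation (14 up, 9 down, median 0.44). Over all genes 50.8% (25.7% up, 25.1% down) and 48.6% (24.2% up, 24.4% down) were called, with medians of -0.00 and 0.01. The 3 that fell most in SHAM mice were Actn3, Actn2 and Flnc, all known from muscle. Actn3, the alpha-actinin of fast fibres, was at 4506 to 6849 CPM in No operation and 126 to 456 CPM in SHAM mice (log2 -4.15, SE 0.49, adjusted p = 3.54e-05). The genes that rose most included Fermt3, the kindlin of blood cells (log2 1.72, SE 0.42, adjusted p = 0.00391 in SHAM mice), Zyx, a protein of stressed adhesions (1.42, SE 0.18, adjusted p = 5.02e-05 in SHAM mice), and Actn1, the non-muscle alpha-actinin (1.65, SE 0.26, adjusted p = 0.000245 in Laminectomy mice). Between the surgical groups edgeR called 0 of 35, with 6 at an unadjusted p under 0.05 (16% of all genes) and 0 by DESeq2 (4.35% of all genes), so the count lay near the share over all genes.

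The 32 integrin ligands that were tested bring the receptors beside what they bind. In SHAM against No operation 20 were called (14 up, 6 down, median 0.45) and in Laminectomy against No operation 18 (13 up, 5 down, median 1.07), beside the same 50.8% and 48.6% of all genes and their medians of -0.00 and 0.01. Spp1, osteopontin, an RGD ligand of alpha v chains, was at 8.97 to 424 CPM in No operation, 1150 to 2439 CPM in SHAM and 1718 to 3566 CPM in Laminectomy mice (log2 3.15, SE 0.80, adjusted p = 0.00511 and log2 3.68, SE 0.82, adjusted p = 0.00248). Vtn, vitronectin, fell in both groups (log2 -1.71, SE 0.35, adjusted p = 0.00144 and -1.25, SE 0.35, adjusted p = 0.00912). Lamb2, a laminin beta chain of the muscle basement membrane, fell by 1.42 (SE 0.18, adjusted p = 4.97e-05) and 1.5 (SE 0.18, adjusted p = 4.67e-05) on the log2 scale.

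Col5a1, a fibrillar collagen, was at 232 to 1198 CPM in No operation and 2457 to 3920 CPM in Laminectomy mice (log2 2.52, SE 0.44, adjusted p = 0.000538). In SHAM mice it was at 2552 to 3401 CPM (log2 2.39, SE 0.44, adjusted p = 0.000652). Itga11, in contrast, was at 41.1 to 83.1 CPM in No operation, 59.5 to 90 CPM in SHAM and 104 to 170 CPM in Laminectomy mice, so the SHAM mice were near the Laminectomy mice in Col5a1 and overlapped the No operation mice in Itga11. Col11a1, another collagen, was at 68.1 to 275 CPM in No operation and 67.2 to 188 CPM in SHAM mice. It was at 351 to 693 CPM in the Laminectomy mice, above all others, as Itga11 was. Between the surgical groups edgeR called 0 of the 32 ligands, with 6 at an unadjusted p under 0.05 (16% of all genes) and 2, Col11a1 and Col13a1, by DESeq2 (4.35% of all genes), again near the shares over all genes. Col13a1, a transmembrane collagen, was at 1.35 to 7.79 CPM in SHAM and 11.3 to 24.4 CPM in Laminectomy mice (log2 1.81, SE 0.59, edgeR adjusted p = 0.179).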

How the data were processed

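Bulk mRNA of tissue from 12 mice (3 groups of 4) was sequenced by the authors from stranded libraries, and per the labels reads were aligned with STAR 2.6.1b to GRCm38 (mm10) and counted per gene with featureCounts 2.0.1, with DESeq2 1.30.1 used for tests. The methods give default settings for counting, and a strand setting is not given beyond that. The authors deposited a table of 18996 genes whose values are estimated counts that are not normalized: 10.22% of them, in 2933 genes, were not whole, although no step that makes fractions is described and whole counts had been assumed. They were rounded to whole numbers, and this moved none by more than 0.5. The authors used 3 mice per group that are not named, so all 4 were used.

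Groups came from the labels. Genes were filtered with filterByExpr by group (14765 kept, 4231 removed), scaled with TMM (0.8487 to 1.134) and fitted over all mice with edgeR 4.0.16 (glmQLFit, glmQLFTest) in R 4.3.3. The biological coefficient of variation was 28.3%. Genes were called at an adjusted p under 0.05 where the log2 fold change exceeded 0.5 in size. p-values measure the spread between 4 mice per group. Other tools were limma 3.58.1, DESeq2 1.42.0, numpy 2.4.6 and pandas 2.3.3. Log2 CPM had a prior count of 2, and CPM per kb used merged exon lengths of the GRCm38 annotation. Each mouse's file differed from its group mates beyond sampling noise.

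The members and lists were chosen with earlier results of these data known. All 10 members are named, with each other integrin that was called, the 3 largest rises and falls among called adaptors and ligands with at least 10 CPM in the higher group, and the 3 genes with the highest r to each member among those averaging at least 10 CPM. Of these some are given by count only. Promoter sequences are RefSeq's. The alternatives were DESeq2, other size factors, no filter, other minimum folds, fits of only the groups compared, a replicate block and leaving out each mouse. Leaving out SHAM 1 and No operation 2 together was chosen after seeing the data. Correlations of deviations between same-numbered mice were -0.228 to 0.352 and not all above 0.1, so numbers were not used as pairs.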

Additional observations from a re-analysis of the deposited data

Results flagged for a closer look

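Within groups of 4 mice, 51 sets of values (the 10 genes and the 7 other integrins called, in 3 groups) were screened for a mouse whose gap to the nearest other mouse, over the group's range, exceeded Dixon's 95% critical value, and 5 were marked. Chance marks about 1 in 20 such groups. Itgav was at 62.1 CPM in No operation 4, against 84.8 to 87.2 in the others of that group (gap over range 0.906), and at 233 CPM in Laminectomy 1, against 155 to 166 (0.861). Itgb1 was at 648 CPM in SHAM 2, against 911 to 964 (0.834). Of the other integrins, Itga2 was at 19.9 CPM in SHAM 1, against 12.2 to 13.4 (0.842), and Itga8 at 7.04 CPM in SHAM 3, against 2.75 to 3.48 (0.831). What sets these mice apart was not tested.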

How the results depend on the processing

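Under the alternatives, 419 of 420 fold changes of the 10 genes moved by less than the spread within groups, and no called value changed its sign. The exception was Itgb3 in SHAM against No operation, at 1.02 on the log2 scale without SHAM 1 and No operation 2 together. The count of the 10 genes called in SHAM against No operation was 2 at a log2 minimum of 1, 3 when only the groups compared were fitted and 3 to 5 with each mouse left out. In Laminectomy against No operation it was 4 to 5 with each mouse left out, and 8 without SHAM 1 and No operation 2 together. In Laminectomy against SHAM DESeq2 called 2 of the 10 genes and 2 ligands. Other integrins called in Laminectomy against No operation ranged from 2 to 7 with each mouse left out, and adaptors were 13 at a log2 minimum of 1. The cause was not tested. Other size factors moved the median of all genes by at most 0.0119, and DESeq2 by at most 0.0135.

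With the replicate block (the label's number as a block, though numbers share only a name), the counts in SHAM against No operation, Laminectomy against No operation and Laminectomy against SHAM were 4, 5 and 0 for the 10 genes, 6, 6 and 0 for other integrins, 23, 23 and 0 for adaptors and 20, 21 and 0 for ligands. Depth limits Itga2b and Itga10 most, with as few as 54 and 74 reads in a mouse.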
